A study of Mus musculus with 10 samples.

Results

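The genes described here are 10 genes of VEGF signaling and of the vascular endothelium in the anterior fontanelle (AF) of the mouse skull: the ligands *Vegfa*, *Vegfb* and *Vegfc*, the receptors *Kdr*, *Flt1* and *Flt4*, and the endothelial genes *Pecam1*, *Cdh5*, *Tek* and *Emcn*. They were found by gene symbol in a table of 23080 genes, all 10 were present, and all 10 passed the filter on low counts that left 16267 genes for testing. Bulk RNA-seq was performed on AF tissue excised at E18.5, from which skin and brain had been left out but which kept bone and the connective tissue of the suture, in 5 libraries labelled WT and 5 labelled as a neural crest cell (NCC) knockout of *Fgfr2*, with the genotype *Wnt1-Cre; Fgfr2* fl/fl. *Wnt1-Cre* drives recombination in the neural crest and the mesenchyme it forms, a lineage that is not known as a source of endothelium, and which cells recombined in these embryos was not tested. The labels do not say which alleles the WT animals carry, nor how many embryos a library holds, so p-values measure the spread between these libraries.

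VEGF ligands are secreted by many cell types and act on receptor tyrosine kinases of endothelial cells. VEGFA drives the growth of blood vessels through KDR (VEGFR2), while FLT1 (VEGFR1) binds VEGFA tightly, signals weakly and limits the amount available to KDR. VEGFC acts mainly on FLT4 (VEGFR3), best known for lymphatic vessels, and intramembranous bone such as the frontal bones forms beside blood vessels that VEGF from osteogenic cells attracts.

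The libraries held 20774667 to 28515434 counts, of which a ribosomal RNA gene, *CT010467.1*, took 18.6% to 33.5%. *Fgfr2* itself stood at 199.5 ± 21.7 CPM (counts per 1000000, TMM-normalized) under the WT label and 318.5 ± 32.8 CPM under the KO label (SD, n = 5), which gave a log2 fold change of 0.67 (SE 0.090, adjusted p = 0.0487, edgeR's quasi-likelihood test) towards the KO label. The groups did not overlap and the direction held in all 19 alternatives, but the adjusted p passed the threshold in only 7 of them (range 4.00e-10 in DESeq2 to 0.427 with a replicate block). Gene-level counts cannot tell recombined from intact alleles, so this difference does not test the label. The groups are called WT-labelled and KO-labelled here, as the alleles were not tested. Towards the KO label, the log2 fold changes of all 16 genes of an osteoblast list were below 0 and those of all 4 genes of a fontanelle connective tissue list above 0. From its bulk RNA-seq of this tissue, the paper reports lower osteoblast-enriched genes and mostly higher AF-enriched genes in the mutant. WT-labelled replicate 2 and KO-labelled replicate 1 held the most skeletal muscle transcripts (962 and 1001 CPM summed over a marker list, against 30.5 to 198 CPM in the other 8), and KO-labelled replicate 2 the most neuronal transcripts (676.5 CPM, against 80.9 to 269 CPM). Fold changes and list counts were also computed without these 3 libraries.

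To show the regulatory sequence of some of the genes whose transcripts varied together between libraries, the 250 bases before the annotated start are printed for *Emcn*, *Flt1* and *Kdr*, with that of the ligand *Vegfa*, whose transcripts did not follow them, for comparison. *Flt4* and *Tek*, which also varied with them, were searched but are not printed. Sequences are from RefSeq (GRCm38.p6), 5′ to 3′ on the strand of the gene. Capitals mark AGGAAG or its reverse CTTCCT, a core of the sites bound by ETS factors, and in *Vegfa* AGATAA, a core of the sites bound by GATA factors. The *Emcn* sequence lies at chr3:137340828-137341077 on the plus strand, that of *Flt1* at chr5:147726012-147726261 on the minus strand, that of *Kdr* at chr5:75978456-75978705 on the minus strand and that of *Vegfa* at chr17:46032378-46032627 on the minus strand.
Emcn: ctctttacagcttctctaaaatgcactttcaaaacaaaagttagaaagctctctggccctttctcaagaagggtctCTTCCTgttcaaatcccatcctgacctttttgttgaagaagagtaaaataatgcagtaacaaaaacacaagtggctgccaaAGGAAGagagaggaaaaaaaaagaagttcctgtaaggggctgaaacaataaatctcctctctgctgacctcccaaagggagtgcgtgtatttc
Flt1: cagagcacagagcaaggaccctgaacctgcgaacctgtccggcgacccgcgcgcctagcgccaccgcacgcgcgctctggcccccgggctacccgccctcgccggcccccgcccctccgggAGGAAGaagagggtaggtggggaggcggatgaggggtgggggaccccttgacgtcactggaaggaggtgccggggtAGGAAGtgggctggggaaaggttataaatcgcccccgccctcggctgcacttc
Kdr: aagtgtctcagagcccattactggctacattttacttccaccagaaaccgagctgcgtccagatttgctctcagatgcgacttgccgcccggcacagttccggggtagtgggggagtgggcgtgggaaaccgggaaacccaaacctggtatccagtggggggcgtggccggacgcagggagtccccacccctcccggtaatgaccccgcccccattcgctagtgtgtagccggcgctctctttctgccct
Vegfa: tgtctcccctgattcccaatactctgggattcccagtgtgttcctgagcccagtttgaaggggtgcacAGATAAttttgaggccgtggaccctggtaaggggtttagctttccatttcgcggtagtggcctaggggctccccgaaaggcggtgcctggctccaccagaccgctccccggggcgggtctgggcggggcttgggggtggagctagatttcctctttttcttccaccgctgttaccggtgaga

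A RefSeq window of 300 bases, from 250 before to 50 after the start, was available for 8 of the 10 genes, and *Cdh5* and *Pecam1* are named only. Both strands were searched. The letters AGGAAG were found in the windows of *Emcn*, at -93 on the gene's strand and at -174 as the reverse, and of *Flt1*, at -129 and -53, counting the base before the start as -1. These letters were in no window of *Kdr*, *Flt4*, *Tek* or the ligands. They occurred in 35.4% of all 32851 windows of this length in the table. Counted by gene, in any of its windows, they occurred in 38.4% of all 27025 genes with a window and in 11 of 14 other endothelial genes. AGATAA (reverse TTATCT), present in 11.2% of all windows, was found in *Vegfa* at -182 and in *Tek* at 37, after its start. ACGTG (reverse CACGT), the core of the hypoxia response element, was in 19.6% of all windows. By gene it was in 21.8% of all genes with a window and in 15 of 21 genes of a hypoxia list, but in neither the *Kdr* nor the *Flt1* window, and in *Vegfa* only in a window at a further annotated start 7206 bases inside the gene. These matches describe letters in the windows and are not binding sites.

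Between genes, levels were compared as CPM per kb of annotated exon over all 10 libraries. *Cdh5*, encoding the cadherin of endothelial junctions (VE-cadherin), was the highest at 46.2 ± 5.11 CPM per kb (SD, n = 10). The adhesion molecule gene *Pecam1* followed at 18.3 ± 1.57 and *Vegfa* at 15.7 ± 1.17 CPM per kb. *Vegfb* was at 12.5 ± 1.07, *Kdr* at 11.2 ± 0.908 and *Tek*, the angiopoietin receptor TIE2, at 8.06 ± 1.08 CPM per kb. *Emcn*, a sialomucin of capillaries and veins, was at 5.72 ± 0.796, *Flt1* at 5.20 ± 0.231, *Vegfc* at 2.60 ± 0.243 and *Flt4* at 2.28 ± 0.240 CPM per kb.

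Of the pairs of neighbours in this order, 2 had ranges that did not overlap, *Cdh5* with *Pecam1* and *Flt1* with *Vegfc*, and *Emcn* was above *Flt1* in 7 of 10 libraries. *Vegfa* was thus the most abundant of the ligands and *Kdr* of the receptors per exon length. With the longest coding transcript as the length, the order became *Cdh5*, *Pecam1*, *Vegfa*, *Kdr*, *Vegfb*, *Emcn*, *Flt1*, *Tek*, *Flt4*, *Vegfc*, so that neighbours from *Vegfb* down depend on the length used while the first 3 do not.

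**Figure D1:**
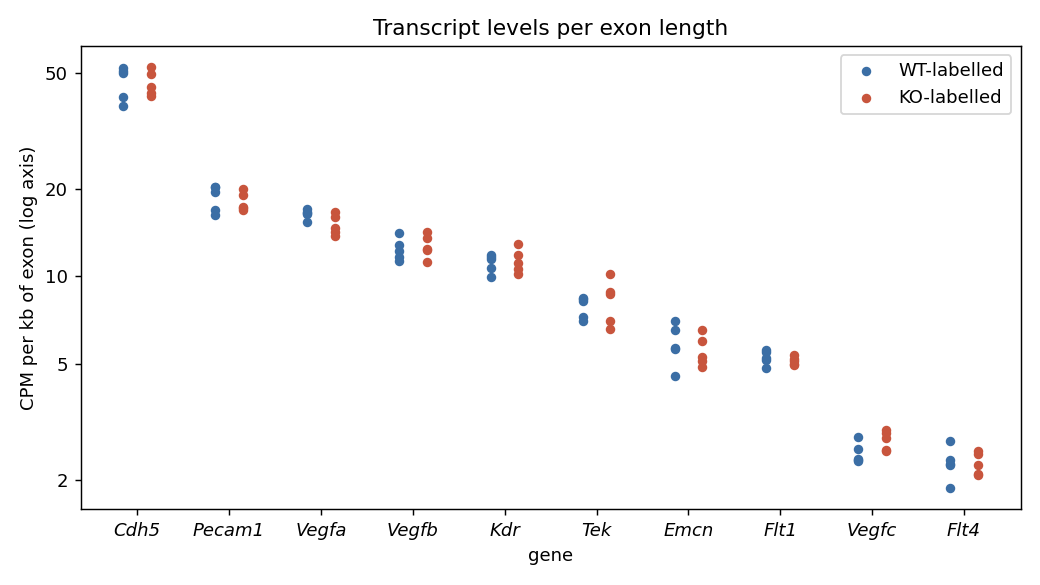
CPM per kb of annotated exon (log axis) for the 10 genes in order of their mean, with a point for each of 5 WT-labelled (blue) and 5 KO-labelled (red) libraries. *Cdh5* lies apart at 38.3 to 52.3, while *Vegfc* and *Flt4* share the bottom of the order and the colours overlap for every gene.

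To ask whether VEGF signaling genes or the endothelium of the AF differed with the *Fgfr2* label, the 10 genes were read from an edgeR fit over all genes. None of the 10 passed an adjusted p of 0.05 or an unadjusted p of 0.05 in edgeR, and none in DESeq2. In limma voom 1 of the 10, *Vegfa*, had an unadjusted p under 0.05 (adjusted p = 0.604, in a range of 0.597 to 0.958 over all alternatives). Over all 16267 genes tested, 0.0184% passed the adjusted and 7.49% the unadjusted threshold in edgeR (3.68% higher and 3.82% lower in the KO-labelled libraries), 0.615% and 7.67% in DESeq2, and 0.0184% and 7.32% in limma voom. The groups overlapped for all 10 genes, as against 1.48% of all genes whose groups did not. Log2 fold changes (KO-labelled over WT-labelled) ran from -0.12 to 0.14, 6 below 0 and 4 above. Their median was -0.0086, where the median over all genes was 0.00073. Taken without sign, the median of the 10 was 0.038, a measure not computed over all genes.

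The 95% intervals bound what these libraries allow. The lowest bound among the 10 genes was a log2 fold change of -0.33 (0.796-fold) and the highest was 0.35 (1.28-fold). These are the outermost bounds, of *Emcn* and *Vegfc*, and the interval of each gene is given with its values. The genes rested on 135 (*Vegfc*) to 5634 (*Cdh5*) counts per library. In bulk tissue a lower share of endothelial cells and less RNA per endothelial cell cannot be told apart.

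**Figure D2:**
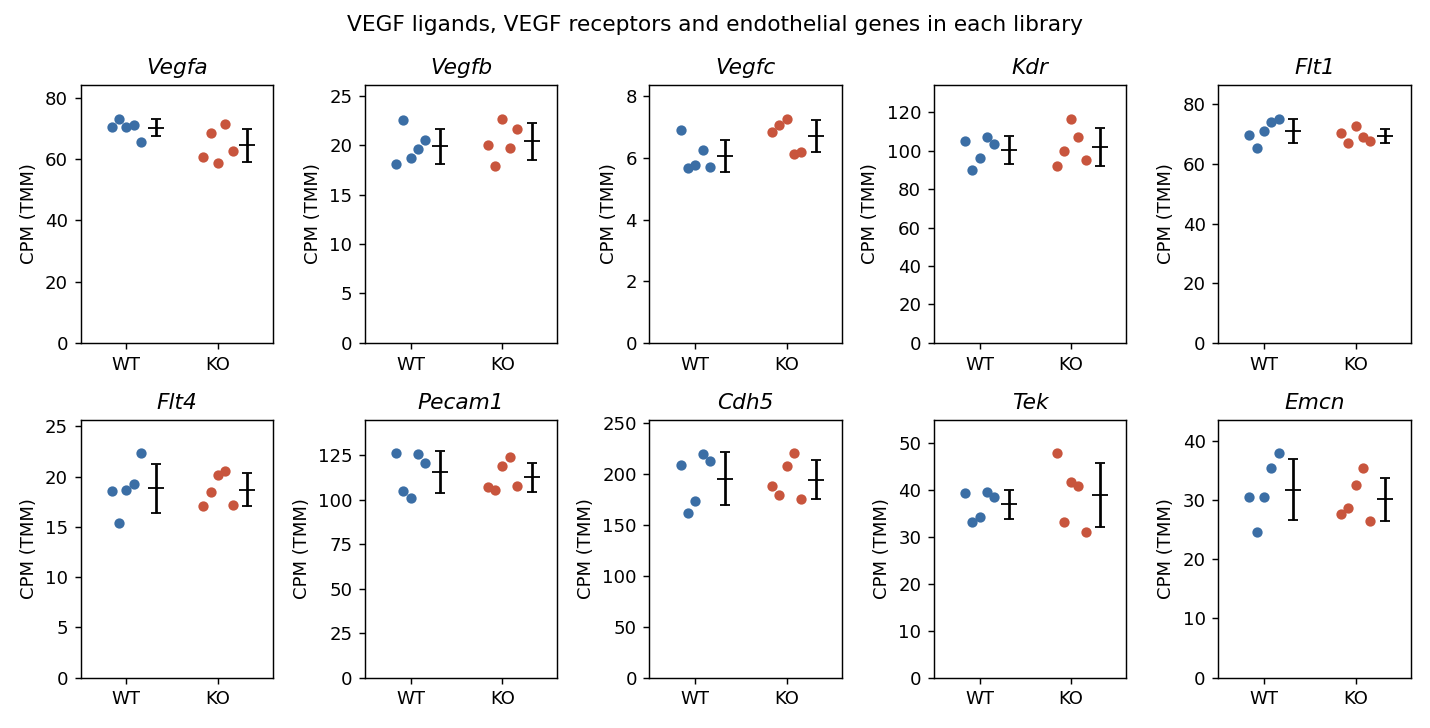
TMM-normalized CPM of each gene in each library, with replicates 1 to 5 from left to right in each group, WT-labelled in blue and KO-labelled in red; the black bar is the mean ± SD (n = 5). The groups overlap in all 10 panels, and *Vegfa* and *Vegfc* show the means that lie farthest apart for their spread.

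The ligands had fold changes of both signs, and none passed the test. *Vegfa* (chr17:46016993-46032369, minus strand, GRCm38), the main ligand of vessel growth, stood at 70.3, 73.2, 70.4, 71.1 and 65.7 CPM in WT-labelled replicates 1 to 5 and at 60.7, 68.5, 58.8, 71.5 and 62.7 CPM in KO-labelled replicates 1 to 5. Of the KO-labelled libraries, 3 lay below every WT-labelled library, while replicate 4 lay among them and replicate 2 above the lowest. Its log2 fold change of -0.12 (SE 0.061, 95% interval -0.26 to 0.011) had an adjusted p = 0.669, the smallest of the 10 genes.

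*Vegfc* (chr8:54077606-54187096, plus strand), the ligand of lymphatic growth, was the only ligand with fewer than 10 CPM. It stood at 6.89, 5.66, 5.78, 6.25 and 5.71 CPM in the WT-labelled and at 6.83, 7.08, 7.28, 6.13 and 6.18 CPM in the KO-labelled libraries. The first 3 KO-labelled replicates were above at least 4 of the 5 WT-labelled libraries, and the other 2 lay within the WT-labelled range. The log2 fold change was 0.14 (SE 0.095, 95% interval -0.063 to 0.35, adjusted p = 0.748), and 0.090 without the 3 libraries rich in muscle or neuronal transcripts.

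*Vegfb* (chr19:6982473-6987651, minus strand), a ligand of FLT1 with little effect on vessel growth, stood at 18.1, 22.5, 18.7, 19.6 and 20.5 CPM in the WT-labelled and 19.97, 17.9, 22.7, 19.7 and 21.6 CPM in the KO-labelled libraries, which spanned nearly the same range. Its log2 fold change was 0.036 (95% interval -0.14 to 0.21, adjusted p = 0.946), and 0.16 (adjusted p = 0.732) without the 3 libraries rich in muscle or neuronal transcripts.

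None of the 3 receptors passed the test. *Kdr* (chr5:75932827-75978458, minus strand), the main signaling receptor for VEGFA, stood at 105.2, 90.0, 96.1, 107.2 and 103.4 CPM in the WT-labelled and 92.1, 100.1, 116.8, 107.0 and 95.3 CPM in the KO-labelled libraries. WT-labelled replicate 2 was the lowest and KO-labelled replicate 3 the highest library, and the log2 fold change was 0.027 (95% interval -0.14 to 0.19, adjusted p = 0.956).

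*Flt1* (chr5:147561604-147726011, minus strand), the receptor that also serves as a decoy, was the steadiest of the 10 genes, with a coefficient of variation of 4.44% over the 10 libraries. It stood at 69.8, 65.3, 70.8, 74.0 and 75.2 CPM in the WT-labelled and 70.3, 67.1, 72.6, 69.0 and 67.6 CPM in the KO-labelled libraries. All KO-labelled values lay within the WT-labelled range, and the log2 fold change was -0.035 (95% interval -0.14 to 0.075, adjusted p = 0.91), the narrowest interval of the 10.

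*Flt4* (chr11:49609263-49652739, plus strand), the VEGFC receptor, stood at 18.53, 15.4, 18.7, 19.3 and 22.3 CPM in the WT-labelled and 17.1, 18.48, 20.2, 20.6 and 17.2 CPM in the KO-labelled libraries, again within the WT-labelled range. Its log2 fold change was -0.0095 (95% interval -0.22 to 0.20, adjusted p = 0.99).

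The ratio of *Flt1* to *Kdr* CPM within a library compares the decoy with the signaling receptor. It was 0.663, 0.725, 0.737, 0.690 and 0.727 in the WT-labelled and 0.764, 0.670, 0.622, 0.644 and 0.710 in the KO-labelled libraries. The highest value and the 2 lowest were all KO-labelled, and the mean log2 ratio was -0.50 ± 0.064 against -0.56 ± 0.12 (SD, n = 5), a difference of -0.058 (two-sided exact permutation test, p = 0.341, adjusted over 2 ratios 0.683). The ratio of *Kdr* to *Cdh5*, the receptor relative to an endothelial cadherin, was 0.504, 0.559, 0.554, 0.490 and 0.487 in the WT-labelled and 0.491, 0.559, 0.563, 0.487 and 0.545 in the KO-labelled libraries. Both groups held values near 0.49 and near 0.56, and the mean log2 ratios of -0.95 ± 0.096 and -0.92 ± 0.10 differed by 0.027 (exact permutation test, p = 0.762, adjusted 0.762). The smallest p that all groupings of these libraries can give is 0.00794.

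Endothelial genes varied between libraries within each group, and none passed the test between the groups. *Cdh5* (chr8:104101625-104144511, plus strand) stood at 208.8, 161.0, 173.5, 218.8 and 212.2 CPM in the WT-labelled and 187.6, 179.0, 207.6, 219.8 and 175.0 CPM in the KO-labelled libraries. The lowest values, in WT-labelled replicates 2 and 3 and KO-labelled replicates 5 and 2, came from both labels, and the log2 fold change was -0.0078 (95% interval -0.22 to 0.21, adjusted p = 0.992).

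*Pecam1* (chr11:106654217-106750628, minus strand) stood at 126.1, 104.9, 101.2, 125.7 and 120.8 CPM in the WT-labelled and 107.2, 105.3, 118.7, 124.0 and 107.5 CPM in the KO-labelled libraries. All KO-labelled values lay within the WT-labelled range, and the log2 fold change was -0.040 (95% interval -0.21 to 0.13, adjusted p = 0.938).

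*Tek* (chr4:94739289-94874976, plus strand) stood at 39.4, 33.1, 34.2, 39.6 and 38.6 CPM in the WT-labelled and 47.9, 33.2, 41.7, 40.9 and 31.1 CPM in the KO-labelled libraries. The highest and the lowest library were both KO-labelled, the highest being replicate 1, and the log2 fold change was 0.075 (95% interval -0.17 to 0.32, adjusted p = 0.911). It was -0.00014 without KO-labelled replicate 1, which was rich in muscle transcripts, and 0.0056 without all 3 libraries rich in muscle or neuronal transcripts.

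*Emcn* (chr3:137341067-137432185, plus strand) stood at 30.5, 24.5, 30.5, 35.3 and 37.9 CPM in the WT-labelled and 27.7, 28.6, 32.4, 35.3 and 26.4 CPM in the KO-labelled libraries. WT-labelled replicates 2 and 5 were the lowest and the highest library, the highest 1.54 times the lowest, and the log2 fold change was -0.076 (95% interval -0.33 to 0.18, adjusted p = 0.915). None of the 10 genes shares exon bases with another annotated gene on either strand.

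**Figure D3:**
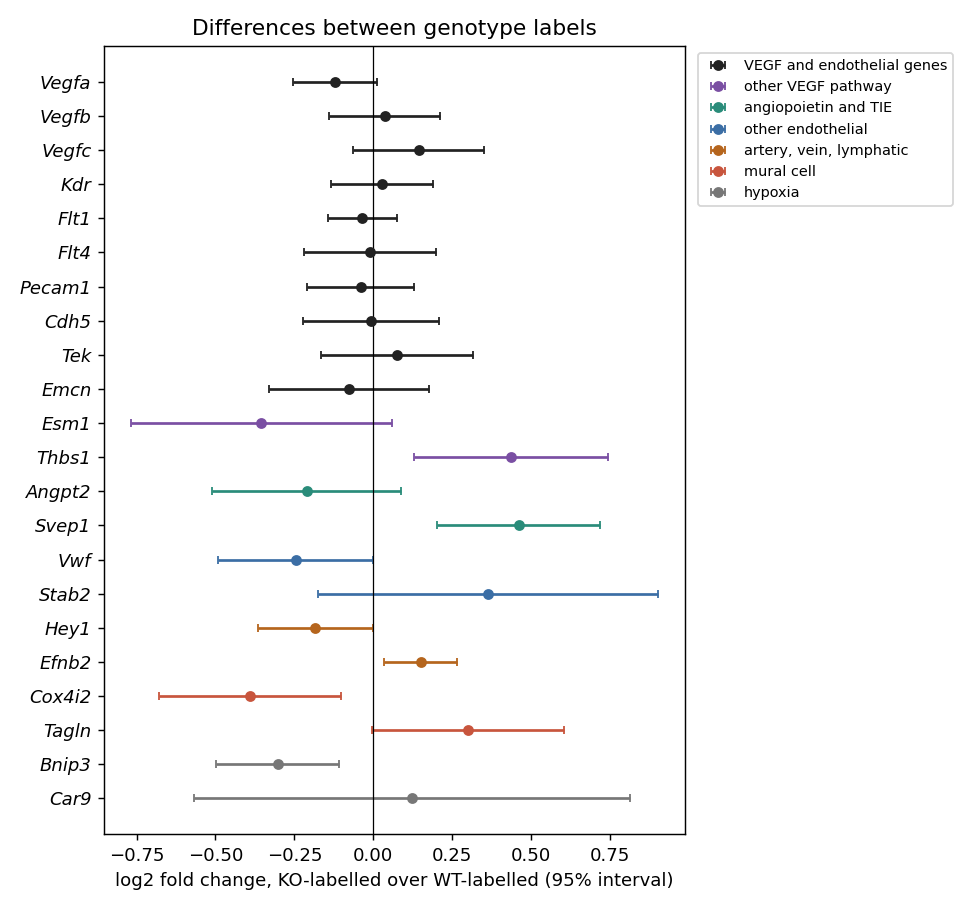
Log2 fold change (KO-labelled over WT-labelled, edgeR) with its 95% interval for the 10 genes (black) and for the lowest and highest gene of each of 6 vascular lists (colours). All 10 black intervals include 0 and stay between -0.33 and 0.35, with points from -0.12 to 0.14. The list genes, chosen as extremes, have points from -0.39 to 0.46 and intervals that reach -0.77 and 0.90.

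To see how the genes varied among themselves, each library's log2 CPM was set against its group mean. Over the 10 libraries *Cdh5* followed the mean of *Pecam1*, *Tek* and *Emcn* with r = 0.962, and *Pecam1*, *Emcn* and *Tek* followed the mean of the other endothelial genes with r = 0.824, 0.766 and 0.575 (Pearson, group-centred, n = 10, given as descriptions). The receptors *Flt1*, *Flt4* and *Kdr* followed the mean of the 4 endothelial genes with r = 0.785, 0.785 and 0.767. The ligands did not: r was 0.288 for *Vegfc*, -0.133 for *Vegfb* and -0.166 for *Vegfa*. The closest pair was *Emcn* with *Flt4* (r = 0.961), before *Pecam1* with *Cdh5* (r = 0.942). All points share the same 10 libraries and their TMM factors.

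Summed over *Pecam1*, *Cdh5*, *Tek* and *Emcn*, the libraries held 404.8, 323.5, 339.3, 419.4 and 409.5 CPM with the WT label and 370.4, 346.0, 400.4, 420.1 and 340.0 CPM with the KO label. The lowest sum was that of WT-labelled replicate 2, the highest that of KO-labelled replicate 4, and the group means were 379.3 ± 44.4 and 375.4 ± 34.5 CPM (SD, n = 5). The highest sum was 1.30 times the lowest. The library with the lowest sum held 962 CPM of skeletal muscle transcripts, and the 4 libraries with the lowest sums, those at 346.0 CPM and below, held 100.2 to 962 CPM against 30.5 to 96.6 CPM in 5 of the other 6, KO-labelled replicate 1 at 1001 CPM being the exception. The part of muscle tissue in these levels was not tested.

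**Figure D4:**
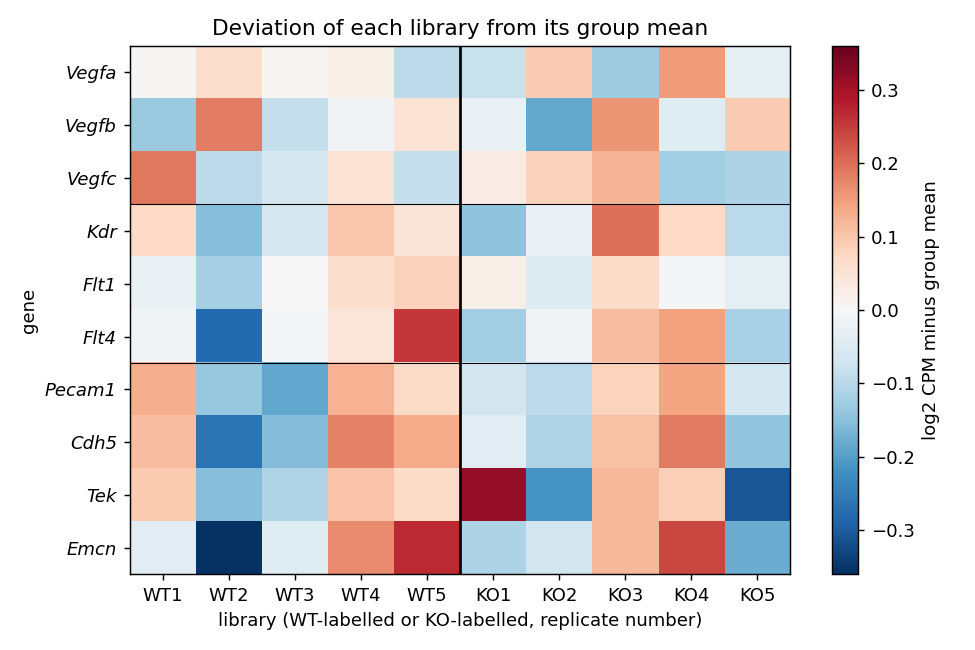
Log2 CPM of each gene (rows, in the order ligands, receptors, endothelial genes) in each library (columns) minus its group mean, red above and blue below. WT-labelled replicate 2 and KO-labelled replicate 5 are blue, and KO-labelled replicates 3 and 4 mostly red, in the receptor and endothelial rows, while the 3 ligand rows have patterns of their own.

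The genes most like the mean of the 4 endothelial genes, among 11005 genes with a mean of at least 5 CPM, were *Apoe* (r = 0.964), *Tmem51* (0.939), *Dhrs3* (0.936), *Fmo1* (0.930) and *Uaca* (0.925). Of 29 other endothelial genes compared, 20 (69.0%) had r above 0.5 with that mean, against 15.1% of all 11005 genes. The median r was 0.657 for these 29 genes, 0.574 for 14 macrophage genes, 0.303 for 13 mural cell genes and -0.658 for 9 skeletal muscle genes, beside 0.0165 for all genes. The genes most like *Vegfa* were *Dctn6* (r = 0.940), *Commd4* (0.924), *B630019K06Rik* (0.915), *Ddx39b* (0.898) and *Fbf1* (0.887), and none of the other endothelial genes had r above 0.5 with *Vegfa*. Of 10 neuronal genes compared, 6 (60.0%) had r above 0.5 with *Vegfa* (median 0.558), against 10.3% of all genes. The 2 KO-labelled libraries whose *Vegfa* lay in the WT-labelled range, replicates 2 and 4, held the most neuronal transcripts of that group (676.5 and 269 CPM, against 88.0 to 248 CPM), and the part of these transcripts in the *Vegfa* level was not tested.

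The vascular genes around the 10 were described by 6 lists of 115 genes in all, of which 114 were tested. In edgeR 0 of the 114 passed an adjusted p of 0.05, and 10 (8.77%) had an unadjusted p under 0.05, 4 higher and 6 lower in the KO-labelled libraries, beside 7.49% of all genes. In DESeq2 2 of them, *Rcan1* and *Svep1*, had an adjusted p under 0.05 (0.00511 and 0.0318), beside 0.615% of all genes in DESeq2. Over all alternatives the adjusted p ran from 0.00511 to 0.571 for *Rcan1* and from 0.0318 to 0.78 for *Svep1*. Of these 10 genes, 6 are named below as the extremes of their list, while *Rcan1*, *Erg*, *Ndrg1* and *Ddit4* were chosen after their values were seen.

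Among 19 other VEGF pathway genes (median log2 fold change -0.012), *Rcan1* and *Thbs1* had an unadjusted p under 0.05. *Rcan1*, a calcineurin inhibitor induced by VEGF through NFAT in endothelial cells, was the single gene of the 6 lists whose groups did not overlap. It stood at 39.6, 46.0, 45.2, 47.3 and 42.0 CPM in the WT-labelled and 35.1, 37.4, 33.7, 37.2 and 35.7 CPM in the KO-labelled libraries, a log2 fold change of -0.30 (SE 0.058, adjusted p = 0.184). Every KO-labelled value was below every WT-labelled value. This was 1 of the 114 tested genes of the lists, where the groups of 1.48% of all genes did not overlap in either direction. Which cells of the tissue held the *Rcan1* transcripts was not tested. *Thbs1*, encoding the antiangiogenic matrix protein thrombospondin 1, was at 204.5 ± 37.0 and 276.8 ± 45.5 CPM (log2 fold change 0.44, adjusted p = 0.522), and *Esm1*, a VEGF-induced gene of endothelial tip cells, was the lowest of the list at -0.35 (adjusted p = 0.687), but at -0.21 without KO-labelled replicate 1, where it was at 2.79 CPM against 4.65 to 5.48 CPM in the other KO-labelled libraries.

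Of 10 angiopoietin and TIE genes (median 0.061), 1 had an unadjusted p under 0.05, *Svep1*, encoding a large matrix protein that binds TIE1. It was at 62.0 ± 8.32 and 85.4 ± 13.4 CPM (log2 fold change 0.46, adjusted p = 0.367 in edgeR), and the value of KO-labelled replicate 2, 65.8 CPM, lay among the WT-labelled libraries. *Angpt2*, the TEK ligand released by activated endothelium, was the lowest at -0.21 (adjusted p = 0.746).

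Of 30 other endothelial genes (median -0.023, 17 below 0), all passed the filter on low counts, and their summed level was 1241 to 1478 CPM in the WT-labelled and 1221 to 1449 CPM in the KO-labelled libraries. Only *Erg*, an ETS factor gene of endothelium that cartilage also expresses, had an unadjusted p under 0.05, at 41.1 ± 5.33 and 50.6 ± 6.88 CPM (log2 fold change 0.30, adjusted p = 0.579). The extremes were *Vwf*, the clotting factor of endothelium and platelets, at -0.25 (adjusted p = 0.659) and *Stab2*, a scavenger receptor of sinusoidal endothelium, at 0.36 (adjusted p = 0.756) from 1.82 CPM.

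Of 19 genes of arteries, veins and lymphatic vessels (median 0.045), the arterial ligand gene *Efnb2* was the highest at 0.15 (adjusted p = 0.568) and the Notch target *Hey1* the lowest at -0.18 (adjusted p = 0.659), the 2 of this list with an unadjusted p under 0.05. The median of this list changed sign, to -0.042 with 3 genes under that p, without the 3 libraries rich in muscle or neuronal transcripts. Of 17 mural cell genes (median -0.019), *Cox4i2*, a cytochrome oxidase subunit of pericytes, was the lowest at -0.39 (adjusted p = 0.531) and *Tagln*, a smooth muscle gene, the highest at 0.30 (adjusted p = 0.659). Without the 3 libraries rich in muscle or neuronal transcripts *Cox4i2* was at -0.15, and without KO-labelled replicate 1 alone *Tagln* was at 0.18.

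Of 23 hypoxia genes 18 had a log2 fold change below 0, beside 49.7% of all genes, with a median of -0.065. *Vegfa* is itself a target of the hypoxia-inducible factors and was not on this list. *Bnip3* (-0.30, adjusted p = 0.445), *Ndrg1* (-0.25, adjusted p = 0.411) and *Ddit4* (-0.18, adjusted p = 0.567) had an unadjusted p under 0.05, and *Car9*, a carbonic anhydrase, was the highest at 0.12 (adjusted p = 0.954). Without the 3 libraries rich in muscle or neuronal transcripts the median became 0.015 and 1 gene of this list had an unadjusted p under 0.05.

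Of the lists of other cell types, 3 lay wholly to 1 side of 0, while the macrophage, erythroid, platelet, epidermis, skeletal muscle and brain endothelium lists had genes on both sides. All 16 osteoblast genes had a log2 fold change below 0 (median -0.29), 9 with an unadjusted p under 0.05, and all 4 fontanelle connective tissue genes were above 0 (median 0.47) with an unadjusted p under 0.05, beside 49.7% of all genes below 0 and 3.82% lower and 3.68% higher at that p. No gene of either list passed the adjusted threshold. Without the 3 libraries rich in muscle or neuronal transcripts these medians were -0.27 and 0.56. All 11 neuronal genes were above 0 (median 0.81), 3 with an unadjusted p under 0.05, and without the 3 libraries that median was 0.23 and 0 had such a p. Summed osteoblast transcripts ranged from 100400 to 117900 CPM in the WT-labelled and from 82900 to 120000 CPM in the KO-labelled libraries, and 91.5% to 94.7% of each sum came from the type I collagen genes *Col1a1* and *Col1a2*. The other 14 genes, summed apart after these values were seen, ranged from 7878 to 9929 CPM and from 5973 to 7710 CPM. The part of this shift in the levels of the 10 genes was not tested.

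**Figure D5:**
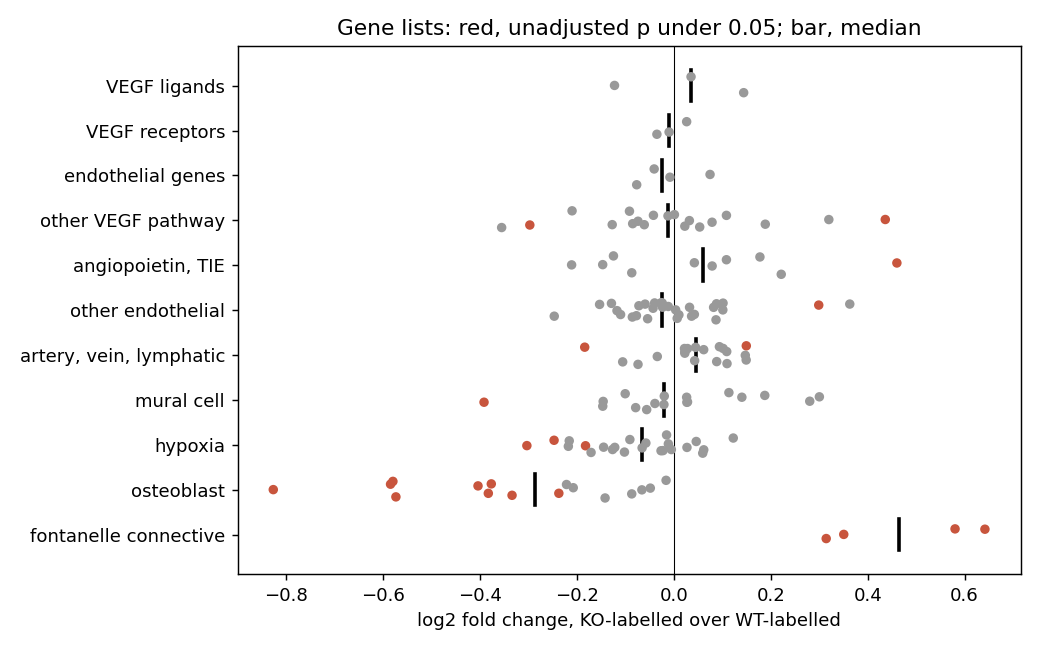
Log2 fold change (KO-labelled over WT-labelled) of every tested gene of 11 lists, red where the unadjusted p was under 0.05, with the list's median as a black bar. The medians of the 6 vascular lists lie between -0.065 and 0.061, that of the osteoblast list at -0.29 and that of the fontanelle connective tissue list at 0.47.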

How the data were processed

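RNA from the excised anterior fontanelle of E18.5 embryos was made into stranded libraries and read as single-end reads. The authors deposited 1 table of estimated counts per gene, not scaled between libraries, in which 66.4% of values were exactly whole, with no tolerance, and the lowest gene sum was 10. The submitters' processing notes name Partek and the build mm10, and the aligner, counting method and strand setting are not given in the sources used here. The design assumed whole counts, so estimated counts were rounded. Genes were filtered with edgeR's filterByExpr (16267 kept, 6813 left out) and TMM-normalized (factors 0.90 to 1.13), then tested by edgeR's quasi-likelihood test, two-sided, with Benjamini-Hochberg adjustment over all genes tested and a threshold of 0.05 (R 4.3.3, edgeR 4.0.16, limma 3.58.1, DESeq2 1.42.0). Log2 CPM values for ratios used a prior count of 0.5. All 20 pairs of libraries in a group differed by more than sampling noise. Positions and exon lengths are from GENCODE M21.

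The 10 genes and the gene lists were chosen with earlier results of these data known. Named genes are the 10, the lowest and highest log2 fold change of each vascular list (mean of at least 1 CPM), and the 5 genes most like the endothelial mean and *Vegfa* (at least 5 CPM), apart from those stated. Alternatives were other scalings, tools and filters, no ribosomal RNA gene, a replicate block, and leaving out each library. Removal of 3 libraries together and the other gene length were chosen after seeing the data. Scripts were tested on simulated data.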

Additional observations from a re-analysis of the deposited data

Results flagged for a closer look

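Of 86 sets of 5 libraries looked at, 7 held a library far from the other 4, beside the 1 in 20 that chance gives. None of the 10 genes was among them. *Hey1* was at 22.8 CPM in KO-labelled replicate 1 against 19.4 to 20.3 CPM in the other KO-labelled libraries. *Bnip3* was at 42.7 CPM in WT-labelled replicate 2 against 32.03 to 34.8 CPM. *Car9* was at 1.70 CPM in WT-labelled replicate 3 against 0.630 to 0.930 CPM. Summed osteoblast transcripts, mostly of *Col1a1* and *Col1a2*, were at 100400 CPM in WT-labelled replicate 2 against 113000 to 117900 CPM. Summed transcripts of a brain endothelium list were at 89.7 CPM in KO-labelled replicate 4 against 81.3 to 83.3 CPM. In that library *Slc2a1*, also on the hypoxia list, held 45.7 CPM of this sum and *Slc7a5* 27.8 CPM. Summed skeletal muscle transcripts were at 962 CPM in WT-labelled replicate 2 against 30.5 to 198 CPM, and at 1001 CPM in KO-labelled replicate 1 against 32.4 to 181 CPM.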

How the results depend on the processing

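None of the 10 genes passed an adjusted p of 0.05 under any alternative run, and 1, *Vegfa*, had an unadjusted p under 0.05 in limma voom. Leaving out each library in turn gave 0 to 1 such genes, the 1 being *Vegfa* without KO-labelled replicate 4 (log2 fold change -0.15, adjusted p = 0.597). The 3 genes with an adjusted p under 0.05 over the whole table became 98 in DESeq2, 1 with library size only, 1 without the ribosomal RNA gene, 1 with the replicate block, 6 without WT-labelled replicate 2 and KO-labelled replicates 1 and 2, and 1 to 6 when each library was left out. Of the vascular list genes, 2 had an adjusted p under 0.05 in DESeq2 and 0 in edgeR, beside 0.615% and 0.0184% of all genes. The study speaks of littermate pairs, but neither it nor the labels say which libraries form a pair. The replicate numbers were not taken as pairs, since the labels do not say what they share. Correlations of same-numbered deviations from the group means were -0.218, 0.12, -0.174, 0.0936 and -0.256. These values cannot show or exclude a shared litter, since libraries also differed in muscle and neuronal transcripts. Whether libraries share a litter was not tested. With the replicate block none of the 10 genes or named list genes changed its call, while *Fgfr2* lost its own (adjusted p = 0.427).

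Changes of sign occurred in fold changes near 0, for which a direction is not given by these data. Library size only, which moves the median of all genes by -0.038, turned *Vegfb* to -0.012 and *Kdr* to -0.011. *Cdh5* became 1.12e-05 with DESeq2 size factors, 2.81e-05 in DESeq2 and 0.0013 with at least 10 counts in every library. Leaving out each library gave 0.0031 (without KO-labelled replicate 3) to 0.093 (without WT-labelled replicate 2) for *Vegfb*, -0.055 to -0.0065 for *Flt1*, -0.016 to 0.072 for *Kdr*, -0.066 to 0.065 for *Flt4*, -0.075 to 0.00016 for *Pecam1*, -0.061 to 0.037 for *Cdh5*, -0.00014 (without KO-labelled replicate 1) to 0.15 for *Tek*, -0.15 to 0.0018 for *Emcn* and -0.022 to 0.40 for *Car9*, which was -0.058 without the 3 libraries. Of 513 fold changes of these genes, the named list genes and *Fgfr2* under alternatives, 477 kept direction and side of the threshold, 22 changed sign, 2 (*Rcan1* and *Svep1* in DESeq2) passed it and 12, all of *Fgfr2*, no longer passed it. Removal of the 3 libraries moved *Bnip3* to -0.16, *Hey1* to -0.28 and *Erg* to 0.49, that of a single library moved *Angpt2* to between -0.32 (KO-labelled replicate 3) and -0.14 (WT-labelled replicate 5), *Stab2* to 0.23 (WT-labelled replicate 2) or 0.21 (KO-labelled replicate 5) and *Car9* to as much as 0.40 (WT-labelled replicate 3). The difference in log2 *Flt1* to *Kdr* ratio ran from -0.0997 (without KO-labelled replicate 1, exact permutation p = 0.0794) to -0.025 (without KO-labelled replicate 3, p = 0.659), and that of *Kdr* to *Cdh5* from 0.0040 (without KO-labelled replicate 3) to 0.056 (without KO-labelled replicate 4). The cause of these changes was not tested. *Car9* was at 1.00 ± 0.408 and 1.09 ± 0.361 CPM (SD, n = 5).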

Other observations

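Among blood cell types carried in the tissue, summed transcripts of an erythroid list ranged from 1018 to 2543 CPM in the WT-labelled and from 916.8 to 1620 CPM in the KO-labelled libraries. Of its 11 tested genes 0 had an unadjusted p under 0.05 in edgeR, beside 7.49% of all genes. Macrophage genes summed to 627 to 880 CPM and 599 to 726 CPM, with 0 of 15 at that threshold, and platelet genes to 15.5 to 23.7 CPM and 16.6 to 20.4 CPM, with 0 of 4. The brain endothelium list had 1 of 7 genes at that threshold and summed to 75.0 to 95.4 CPM and 81.3 to 89.7 CPM, mostly from *Slc2a1* and *Slc7a5*. The lymphatic genes *Lyve1* and *Prox1*, chosen after their values were seen, were at 10.5 ± 1.28 and 1.89 ± 0.211 CPM in the WT-labelled and 11.4 ± 7.31 and 2.02 ± 0.903 CPM in the KO-labelled libraries (SD, n = 5), and *Lyve1* reached 24.4 CPM in 1 KO-labelled library, replicate 1. In that library *Prox1* was at 1.625 CPM, and *Mrc1* of the macrophage list had its highest value, 98.35 CPM. Which cells held these *Lyve1* transcripts was not tested.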
